A study of Mus musculus with 6 samples.

Results

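Transcripts of the chemokines and their receptors were followed in the uterine horn of mice given progesterone (P4) or oil. The members were the genes whose symbol in the platform annotation named a CC, CXC, CX3C or XC chemokine, a receptor of such a ligand, or 1 of the 4 atypical receptors Ackr1 to Ackr4. They came to 53 of 18193 genes measured, 33 ligands and 20 receptors, on 85 probe sets. Each gene was read from 1 probe set, that with the highest mean log2 value over the 6 arrays. Probe sets annotated to several genes, among them those that list Ccl19 or Ccl21a, were not used here.

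All mice were GATA2 f/f females of mixed background, 8 weeks old and ovariectomized, so that their own ovarian steroids were largely gone. The f/f notation stands by convention for a floxed allele on both chromosomes, and the labels name no recombinase. The groups differed in what the labels call Oil (3 arrays) and P4 (3 arrays), with no dose and no time after treatment given. Whether each array held RNA of its own animal is not stated. The p-values therefore measure only how far these samples spread, and that spread may be technical.

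Chemokines are small secreted proteins that guide migrating cells along gradients, and the pattern of their conserved cysteines divides them into the CC, CXC, CX3C and XC families. Their receptors couple to inhibitory G proteins, while the atypical receptors take up chemokines without that coupling. In the uterus, chemokines of epithelium, stroma and vessels are known to direct the entry of neutrophils, monocytes, natural killer cells and antibody-secreting cells, and ovarian steroids are known to alter this traffic.

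Array medians ran from 117 to 123. Markers of uterine epithelium (7 of 7), endometrial stroma (7 of 7) and smooth muscle (5 of 5) lay in the brighter part of all genes, above the median level. Leukocyte markers set arrays apart within each group. The summed intensity of 5 pan-leukocyte markers was 1506, 2076 and 4390 on oil arrays 1, 2 and 3, and 1087, 3443 and 4383 on P4 arrays 1, 2 and 3. That of 7 neutrophil markers was 535, 521 and 6499 after oil and 505, 7521 and 9750 after P4. Oil array 3, P4 array 2 and P4 array 3 were thus high in the neutrophil sum, and the groups overlapped in both sums. On these arrays S100a8 and S100a9 made up most of the neutrophil sum, and Csf3r and Mmp8 were also raised. Camp, Ngp and Mpo stood out on P4 array 2 only. On oil array 3, P4 array 2 and P4 array 3 Camp read 97.3, 379 and 99.1, Ngp 157, 514 and 160, and Mpo 115, 194 and 89.4. The calls among members without the arrays numbered 3, and without those numbered 2, are given below.

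After P4, 1 chemokine ligand rose and 2 ligands and 1 receptor fell. The receptor Cxcr4 fell by 1.22 ± 0.17 (SE) on the log2(intensity + 16) scale, the scale of all log2 differences below. The mucosal chemokine Cxcl17 fell by 0.83 ± 0.21 and the skin chemokine Ccl27a by 0.68 ± 0.15, while Ccl25, the ligand of Ccr9, rose by 0.34 ± 0.085. These 4 calls among 53 members are 7.55%, beside 13.0% of all genes by the same rule, a limma adjusted p under 0.05. Of all genes 6.08% were called higher and 6.94% lower. At an unadjusted limma p under 0.05 there were 9 members, 4 higher and 5 lower (17.0%), beside 26.6% of all genes (11.9% higher and 14.7% lower). In 8 members, 15.1%, the P4 arrays did not overlap the oil arrays, 3 higher and 5 lower, against 31.8% of all genes (14.3% higher and 17.5% lower). The median log2 difference was 0.01 over the members and -0.01 over all genes. The members were dim as a group, since 43 of the 53 lay in the dimmer part of all genes, below the median level. In that part 5.38% of all genes and 2 of the 43 members were called; above it 20.7% of all genes and 2 of the 10 members were.

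**Figure D1:**
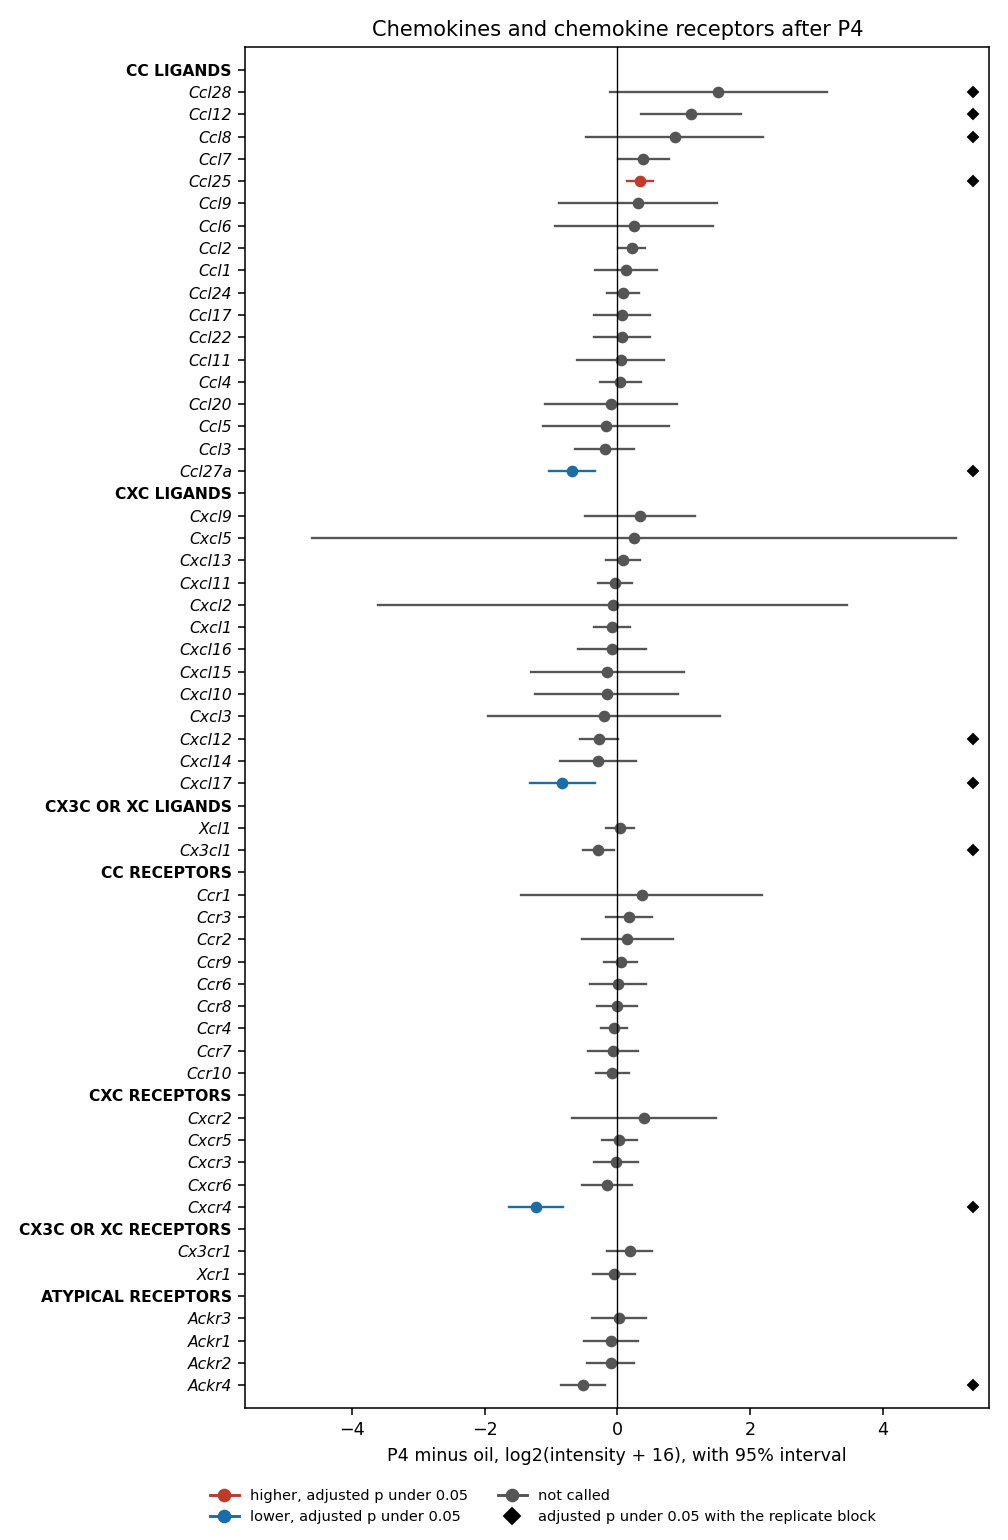
Difference of P4 minus oil in log2(intensity + 16) for the 53 members by class, with 3 arrays in each group; the points are estimates and the bars 95% intervals from limma. Cxcr4 lies farthest below 0 among the called genes, Cxcl5 and Cxcl2 have the widest intervals, and diamonds mark the 10 members called with the replicate block.

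The replicate numbers in the titles were taken to pair the arrays. Over the 53 members, deviations from the group mean correlated between the oil and P4 arrays of the same number at 0.90, 0.67 and 0.96, against 0.53, 0.13 and 0.64 over all genes. Oil array 2 was not specific to its partner: over all genes it correlated more with P4 array 1 (0.29) than with P4 array 2 (0.13), and over the members about equally with both (0.65 and 0.67). These correlations are across genes, which are not independent replicates, and the calls with the block rest on this pairing. Among members Cxcl5 and Cxcl2 deviated most, at 4.38 and 3.34 on oil array 3 and 3.84 and 2.63 on P4 array 3. Deviations cancel out within a group, so genes high on array 3 alone also make arrays 1 and 2 correlate between groups. The member correlations therefore cannot decide whether arrays 1 and 2 are paired by number. In 20 members, 10 higher and 10 lower (37.7%), P4 differed from oil with the same sign in all 3 pairs, beside 52.0% of all genes (23.8% higher and 28.2% lower). With the replicate number as a block, 10 members were called, 4 higher and 6 lower (18.9%), beside 20.9% of all genes (9.29% higher and 11.6% lower). The additional 6 were the ligands Ccl28, Ccl12 and Ccl8, which were higher after P4, and the ligands Cx3cl1 and Cxcl12 and the atypical receptor Ackr4, which were lower. Dropping the numbered 3 arrays of both groups, which was decided with the data in view, left 6 of the 10 called with the block. The calls of Ccl8 (limma adjusted p = 0.0853), Cx3cl1 (0.134), Cxcl12 (0.143) and Ccl25 (0.0973) were lost. Without the block, Cxcr4, Cxcl17 and Ccl27a kept their calls when these arrays were dropped and Ccl25 did not (0.117). With both arrays numbered 2 dropped, 0 members and 171 of all genes were called.

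Cxcr4 is the receptor of Cxcl12 and holds leukocytes, endothelial cells and progenitor cells near sources of that ligand. Its intensity was 391, 301 and 317 on the oil arrays and 103, 135 and 172 on the P4 arrays. All P4 arrays were below all oil arrays, with means of 336 ± 47.7 (SD, n = 3) and 137 ± 34.5 (n = 3). The limma adjusted p was 0.0049. It stayed at or below 0.0235 whichever array was left out, and was 0.0963 with both arrays numbered 2 left out. In whole uterine horn, fewer cells of a type and less RNA per cell cannot be told apart. Of 5 markers of blood endothelium 2 were called (40%, beside 13.0% of all genes and 20.7% of those above the median level). Both were lower after P4, Cldn5 at -0.92 ± 0.16 and Tek at -0.38 ± 0.10. Uncalled were Cdh5 at -0.19 ± 0.098 (adjusted p = 0.285), Emcn at -0.17 ± 0.15 (0.536) and Kdr at -0.035 ± 0.090 (0.869). The Tek call was lost without oil array 2 or 3 or any 1 P4 array (adjusted p up to 0.132). The sum of the 5 ran from 5554 to 6597 after oil and from 4574 to 4926 after P4. The two-sided exact permutation p was 0.1, and no smaller p is possible with 3 arrays against 3. The same test was run on every list, and the sum of 15 genes that process or present chemokines also gave 0.1. Within the endothelial sum, Cldn5 had means of 1586 after oil and 814 after P4. The part of endothelium in the Cxcr4 result was not tested. The part of leukocyte content, whose marker sums spread widely within both groups, was not tested either.

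The promoter of Cxcr4 is shown because this gene had the largest called change among the members. RefSeq tables of build GRCm38.p6 held a promoter for 40 of the 53 members. The 250 bases before the start of Cxcr4 lie at chr1:128592300-128592549 on the minus strand. Capitals mark the letters AGAACA, a half-site of the element bound by progesterone and glucocorticoid receptors, searched on both strands.
Cxcr4 promoter: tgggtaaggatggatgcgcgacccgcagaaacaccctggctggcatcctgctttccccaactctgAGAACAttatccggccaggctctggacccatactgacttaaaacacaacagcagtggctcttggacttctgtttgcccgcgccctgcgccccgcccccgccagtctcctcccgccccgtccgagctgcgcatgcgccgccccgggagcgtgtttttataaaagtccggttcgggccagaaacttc
The half-site begins at position -185 and is a match of letters only. It occurs in 16.1% of the 32851 promoter windows of this length and in 13.6% of the 44 windows of members. The full element of these steroid receptors, which can overlap the half-site, was found in 0.167% of all windows and in 0 of the 44. AGATAA, a form of the GATA motif, was found in 9.99% of all windows and 15.9% of those of members, and Cxcr4 was not among them.

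Cxcl12, the stromal ligand of Cxcr4, had 6273, 6848 and 6137 after oil and 4647, 6509 and 4917 after P4. Its P4 array 2 lay among the oil arrays and the groups overlapped. The log2 difference was -0.28 ± 0.13 (limma adjusted p = 0.212). It was 0.0269 without P4 array 2 and between 0.258 and 0.465 without any other array. With the replicate block the adjusted p was 0.0484, a call lost without the arrays numbered 3 (above), and within the 3 pairs the values on the P4 arrays were 0.741, 0.951 and 0.802 of those on oil. A further probe set of Cxcl12 read 1903, 1952 and 1548 after oil and 1194, 1525 and 1294 after P4, without overlap. The last probe set of Cxcl12, dimmer than these, read 191.5, 202.2 and 203.2 after oil and 159.2, 197.6 and 215.5 after P4, which overlap. Ackr3, the other receptor of Cxcl12, which clears it from the tissue, had a difference of 0.03 ± 0.18 (adjusted p = 0.951).

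Cxcl17 is made by mucosal epithelia and attracts myeloid cells. It read 601, 625 and 476 after oil and 311, 226 and 424 after P4. Every P4 array was below every oil array, though P4 array 3 came close to oil array 3. The limma adjusted p was 0.0394. The call was lost without oil array 1 or 2 or P4 array 1 or 2 (adjusted p up to 0.145). Of 7 epithelial markers 0 were called, with 0 higher and 2 lower by limma at an unadjusted p under 0.05. The blocked fit called 3 of the 7 lower, Krt18 (adjusted p = 0.031), Krt19 (0.0147) and Epcam (0.0465). The other epithelial markers were uncalled in both fits and differed in sign. Krt8 was at -0.36, Cdh1 at -0.047, Foxa2 at 0.024 and Cldn4 at 0.31. The summed intensity of the 7 ran from 13490 to 15370 after oil and from 8289 to 13680 after P4. Krt18, a keratin of simple epithelia, had a difference of -0.62 ± 0.19 (adjusted p = 0.0673). The part of epithelial content in the Cxcl17 result was not tested.

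Ccl27a, a chemokine best known from skin epithelium, where it recruits T cells through Ccr10, read 446, 383 and 334 after oil and 237, 277 and 195 after P4. The groups did not overlap, and the limma adjusted p was 0.0223. The call was lost without oil array 1 or 2 or P4 array 3 (adjusted p up to 0.0828). Scaling by the hybridisation controls also ended it (0.0636) and shifted the median of all genes from -0.01 to 0.12. The probe set is of a kind open to cross-hybridisation, and the mouse genome carries near-identical copies of this gene, so the signal may be shared between copies. Ccr10, its receptor and that of Ccl28, had a difference of -0.08 ± 0.11 (adjusted p = 0.732).

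Ccl25 attracts lymphocytes that carry Ccr9 and is best known from thymus and small intestine. It read 55.1, 52.4 and 53.6 after oil and 77.6, 69.2 and 69.9 after P4, a narrow spread in both groups and no overlap. The limma adjusted p was 0.038. The call was lost whichever array was left out (adjusted p from 0.068 to 0.133), and with the mean of both Ccl25 probe sets (0.0669). Ccl25 was among the 18 members in the dimmest 30% of genes. Ccr9 read 161, 147 and 141 after oil and 173, 136 and 158 after P4, which overlap, with a difference of 0.05 ± 0.11 (adjusted p = 0.834).

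Ccl28 showed the largest difference of any member, and it rested on the pairing. This mucosal chemokine attracts antibody-secreting cells and other lymphocytes through Ccr10 and Ccr3. It read 151, 129 and 654 after oil and 446, 429 and 1859 after P4. Array 3 was the highest of each group, and oil array 3 lay above P4 arrays 1 and 2, so the groups overlapped. Without the block the difference was 1.52 ± 0.71 (limma adjusted p = 0.22, 95% interval from -0.11 to 3.16). Leaving out 1 array moved it between 0.84, without P4 array 3, and 2.23, without oil array 3. Within the pairs the value rose 2.76, 3.07 and 2.80 times on the (intensity + 16) scale. With the block the difference was 1.52 ± 0.077 (adjusted p = 0.000163). Once the numbered 3 arrays of both groups were dropped, it was 1.54 ± 0.12 without the block (adjusted p = 0.00269) and 1.54 ± 0.11 with it (0.000277). Of the other probe sets of Ccl28, 1 read 10.6, 27.2 and 27.7 after oil and 40.9, 47.3 and 410.0 after P4, without overlap. The remaining 1 read 93.3, 79.2 and 89.3 after oil and 88.3, 85.6 and 375 after P4, so that only P4 array 3 stood above the oil arrays. Ccr3 and Ccr10, its receptors, had differences of 0.18 ± 0.15 and -0.08 ± 0.11, neither called.

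The promoter of Ccl28 is shown as that of the member with the lowest adjusted p under the replicate block. The window lies at chr13:119623569-119623818 on the plus strand of GRCm38.p6 and is printed in lower case throughout, because none of the 4 motifs searched is in these 250 letters.
Ccl28 promoter: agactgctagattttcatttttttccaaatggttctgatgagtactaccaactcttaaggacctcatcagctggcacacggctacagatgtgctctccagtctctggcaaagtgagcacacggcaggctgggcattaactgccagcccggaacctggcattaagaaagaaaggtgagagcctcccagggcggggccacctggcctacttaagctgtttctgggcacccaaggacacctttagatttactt
Absence from this window says only that the letters are not there.

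**Figure D2:**
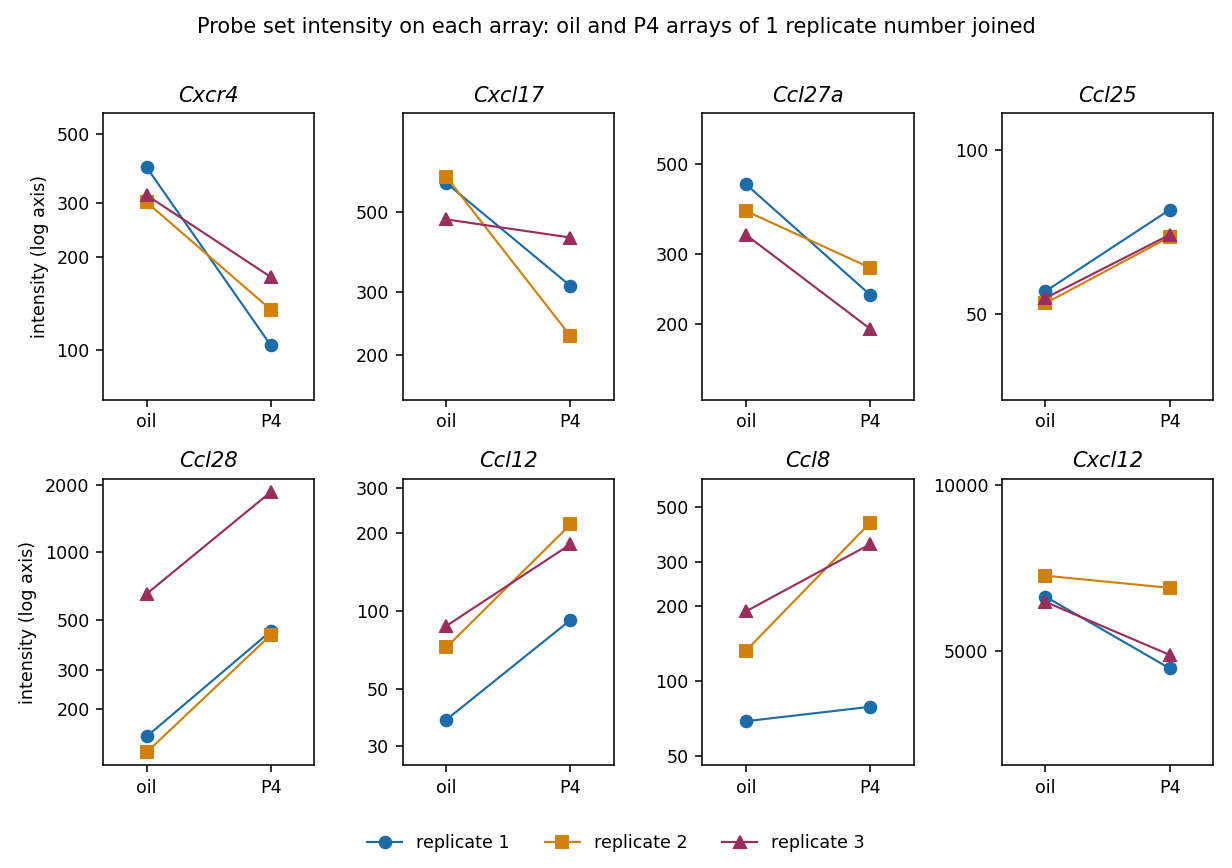
Intensity on a log axis of 8 members on each array, with the oil and P4 arrays of the same replicate number joined. Cxcr4, Cxcl17 and Ccl27a fall in each pair, and Ccl28 rises by a similar step in each pair from 151, 129 and 654 to 446, 429 and 1859.

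In the monocyte-attracting ligands Ccl2, Ccl7, Ccl8 and Ccl12, whose genes lie near each other, the P4 array exceeded the oil array in each pair, as it did in 23.8% of all genes. Among further ligands encoded beside them, Ccl11 did so in 1 of 3 pairs and Ccl1 in 2 of 3. Ccl12, a ligand of Ccr2, read 38.0, 72.4 and 87.7 after oil and 92.4, 217 and 182 after P4. The groups did not overlap, though P4 array 1 was close to oil array 3. The difference was 1.11 ± 0.32 (limma adjusted p = 0.062), and with the block 1.11 ± 0.11 (adjusted p = 0.000957). Ccl8, which acts on monocytes and other leukocytes, read 69.2, 132 and 190.4 after oil and 79.0, 431 and 354 after P4. P4 array 1 lay among the oil arrays. The difference was 0.86 ± 0.57 (adjusted p = 0.412; 0.0358 with the block). Ccl7 had 0.39 ± 0.17 (adjusted p = 0.182) and Ccl2, the main monocyte chemokine, 0.22 ± 0.089 (adjusted p = 0.162). These values moved with single arrays. Without P4 array 1 the adjusted p was 0.0156 for Ccl12, 0.0254 for Ccl8 and 0.0276 for Ccl7, and without P4 array 2 it was 0.185, 0.735 and 0.423. The difference of Ccl8 ran from 0.45, without P4 array 2, to 1.56, without P4 array 1. With both arrays numbered 1 left out, Ccl12 (0.0157) and Ccl8 (0.025) were called and Ccl7 (0.0925) was not. Ccr2, through which Ccl2, Ccl7 and Ccl12 draw monocytes from blood, read 119, 130.0 and 232 after oil and 113, 240.2 and 187 after P4. Its difference was 0.15 ± 0.30 (adjusted p = 0.823).

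Macrophage and monocyte markers varied between arrays as well. The sum of 10 such markers was 4002, 5567 and 9975 after oil and 4019, 8642 and 11220 after P4, and 0 of the 10 were called (1 with the block, Cd14, at 0.58 with adjusted p = 0.0056). The sum was lowest on array 1 of each group, as were Ccl12 and Ccl8. The part of monocyte content in the Ccl12 and Ccl8 results was not tested. None of the 10 markers was listed at 0.

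The remaining CC ligands showed no called change. Ccl6 and Ccl9, myeloid chemokines of rodents, had differences of 0.25 ± 0.51 and 0.31 ± 0.51. Ccl6 read 145, 159 and 329 after oil and 92.2, 405 and 345 after P4, so that array 1 was low in both groups. Ccl5, a T cell and monocyte chemokine, had -0.17 ± 0.41 and Ccl3 -0.19 ± 0.19. Ccl11, an eosinophil chemokine, had 0.05 ± 0.28, and Ccl24, which shares its receptor Ccr3, 0.09 ± 0.11. Ccl1, Ccl4, Ccl17 and Ccl22 had differences from 0.05 to 0.13. Of the 18 CC ligands 14 had a positive difference, with a median of 0.11, beside 8681 of 18193 genes and a median of -0.01. Ligands shared deviations between arrays, so these signs are not independent, and a shift of the class was not tested.

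The ligands of Cxcr2, the main chemokine receptor of neutrophils, differed between arrays far more than between treatments. Cxcl5 read 17.8, 16.2 and 3121 after oil and 17.4, 51.5 and 2561 after P4. Cxcl2 read 16.9, 13.7 and 992 after oil and 16.1, 29.2 and 571 after P4. Cxcl3 read 24.4, 13.6 and 201 after oil and 15.0, 32.2 and 97.7 after P4. In each of these 3 genes array 3 was the highest of both groups, and the remaining arrays were dim. The differences between treatments were 0.25 ± 2.10, -0.07 ± 1.53 and -0.20 ± 0.75, with limma adjusted p from 0.913 to 0.986. The 95% interval of Cxcl5 ran from -4.59 to 5.10 in this unpaired fit. With the block its difference was 0.25 ± 0.23 (adjusted p = 0.515), and within the pairs the values were 0.987, 2.09 and 0.822 times those on oil on the (intensity + 16) scale. When the arrays numbered 3 were dropped, Cxcl5 had a difference of 0.52 ± 0.30, uncalled. Cxcl2 then had a difference of 0.28 ± 0.18 and Cxcl3 of 0.16 ± 0.24, both uncalled and opposite in sign to the values with all arrays. Ccl20, an epithelial ligand of Ccr6 outside this family, was also highest on array 3 of both groups, with 77.4, 58.4 and 201 after oil and 67.8, 68.1 and 160.2 after P4.

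Cxcl1, the remaining neutrophil chemokine of this gene cluster, depended on the probe set. The 1 used by the rule read 133, 132 and 166 after oil and 125, 130.4 and 148 after P4. A further probe set read 22.7, 38.3 and 133 after oil and 33.6, 63.4 and 64.3 after P4. The last probe set read 79.1, 85.8 and 179 after oil and 95.3, 101 and 131 after P4. In all 3 oil array 3 was the highest of its group, by a narrower margin with the probe set used than with the others. The difference between treatments was -0.08 ± 0.12 with the probe set used (adjusted p = 0.753). Cxcl15, a CXC ligand known from lung epithelium and encoded in the same cluster, read 581, 287 and 1234 after oil and 347, 518 and 836 after P4, again highest on array 3.

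The promoters of Cxcl1, Cxcl2 and Cxcl3 are shown because these ligands lie near each other and share a motif, and Cxcl2 and Cxcl3 varied widely between arrays. The windows lie on the plus strand of GRCm38.p6 at chr5:90890995-90891244, chr5:90903649-90903898 and chr5:90785851-90786100. Capitals mark matches to the kappa B consensus, the site of the inflammatory factor NF-kappa B, searched on both strands.
Cxcl1 promoter: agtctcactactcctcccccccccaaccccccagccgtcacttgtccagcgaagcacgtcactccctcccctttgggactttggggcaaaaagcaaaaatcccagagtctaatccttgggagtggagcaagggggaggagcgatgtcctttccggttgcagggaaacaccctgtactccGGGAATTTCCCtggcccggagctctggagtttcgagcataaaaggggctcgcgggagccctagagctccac
Cxcl2 promoter: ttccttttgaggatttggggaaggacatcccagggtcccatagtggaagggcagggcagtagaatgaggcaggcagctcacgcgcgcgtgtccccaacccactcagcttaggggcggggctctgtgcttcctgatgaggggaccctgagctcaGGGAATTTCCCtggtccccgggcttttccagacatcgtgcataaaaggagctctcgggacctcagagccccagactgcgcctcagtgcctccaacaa
Cxcl3 promoter: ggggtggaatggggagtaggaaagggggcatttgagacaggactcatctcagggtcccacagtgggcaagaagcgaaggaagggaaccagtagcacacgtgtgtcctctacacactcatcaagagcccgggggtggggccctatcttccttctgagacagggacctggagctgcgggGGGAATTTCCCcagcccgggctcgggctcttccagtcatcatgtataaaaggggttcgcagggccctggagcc
The letters GGGAATTTCC stand in all 3 windows, beginning at -71 in Cxcl1, -97 in Cxcl2 and -73 in Cxcl3, and an overlapping match on the opposite strand begins 1 base later. The consensus was found in 7.25% of all 32851 windows and in 11 of the 44 windows of members (25.0%). Besides these 3 genes, the windows were those of the ligands Ccl1, Ccl9, Ccl20 and Cxcl10 and the receptors Ackr2, Ccr1, Ccr3 and Ccr6. A match describes letters only.

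**Figure D3:**
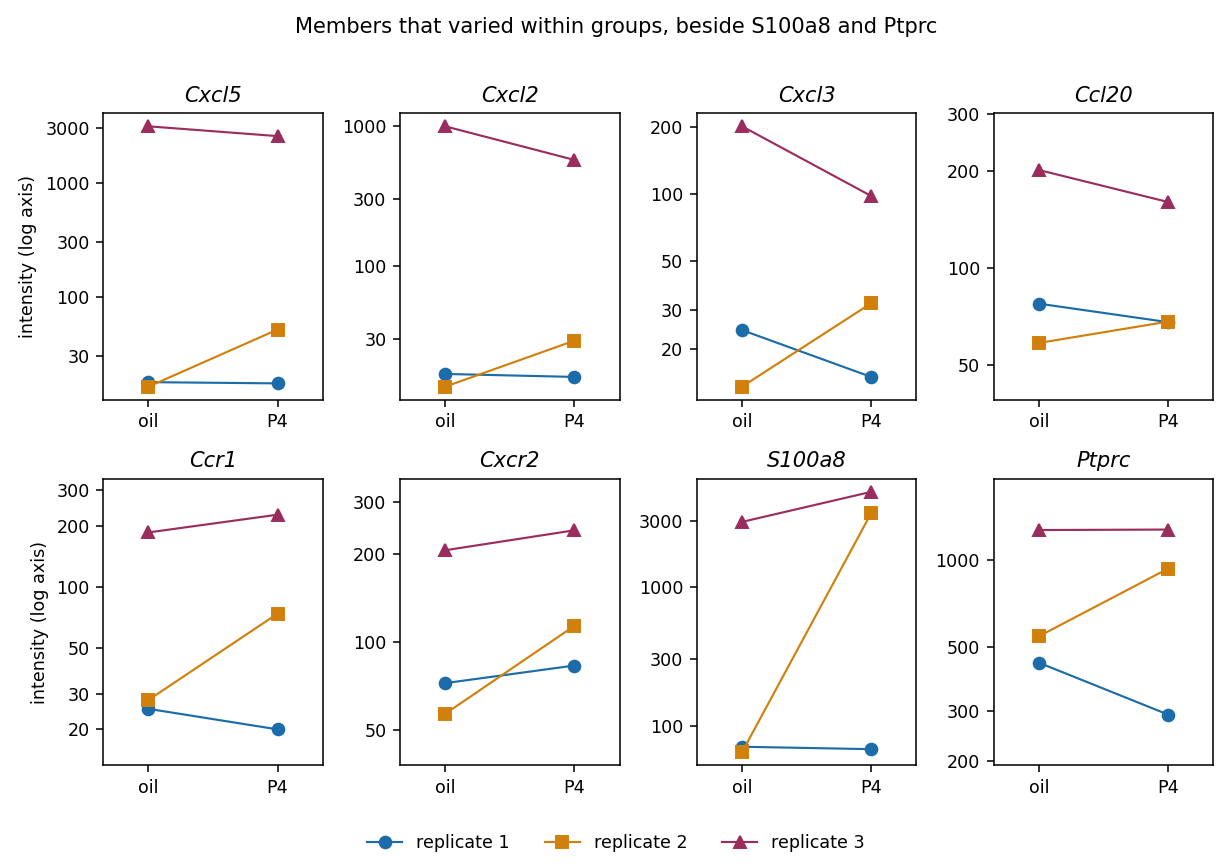
Intensity on a log axis of 6 members that varied within groups, beside the neutrophil gene S100a8 and the leukocyte gene Ptprc, with arrays of the same replicate number joined. Cxcl5, Cxcl2, Cxcl3 and Ccl20 are high on array 3 of both groups, while S100a8 is also high on P4 array 2.

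Neutrophil markers and receptors varied as well, in an order that only partly matched these ligands. S100a8, an abundant neutrophil protein, read 70.3, 64.3 and 2950 after oil and 67.6, 3408 and 4860 after P4. P4 array 2 was thus high in S100a8 while Cxcl5 read 51.5 and Cxcl2 29.2 there. Cxcr2 read 72.2, 56.8 and 206 after oil and 83.0, 113 and 241 after P4, with a difference of 0.40 ± 0.47 (limma adjusted p = 0.676). Ccr1, a receptor of myeloid cells, read 25.2, 27.9 and 186 after oil and 19.99, 74.1 and 227 after P4, with a difference of 0.37 ± 0.79 (adjusted p = 0.84). Both receptors were highest on array 3 and next on P4 array 2 within P4. Of the 7 neutrophil markers 0 were called, and none was listed at 0.

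The spread within groups was wider for members than over all genes. It was wider still for markers of all leukocytes (median SD 0.94 log2), neutrophils (1.06) and macrophages and monocytes (0.79). Markers of T cells (0.21) and natural killer cells (0.15) lay between members and all genes. The median SD within groups was 0.24 log2 over the members and 0.12 over all genes; in the dimmer part of all genes it was 0.24 for members and 0.13 for all. An SD over 1 was found in 5 members (9.43%) and in 0.412% of all genes. The 5 were Cxcl5, Cxcl2, Ccr1, Cxcl3 and Ccl28. Among the oil arrays, array 3 was the highest for 36 of the 53 members. Among the P4 arrays, array 3 was the highest for 34 and array 1 the lowest for 37. P4 array 3 was above its group mean for 48 members, beside 57.1% of all genes.

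**Figure D4:**
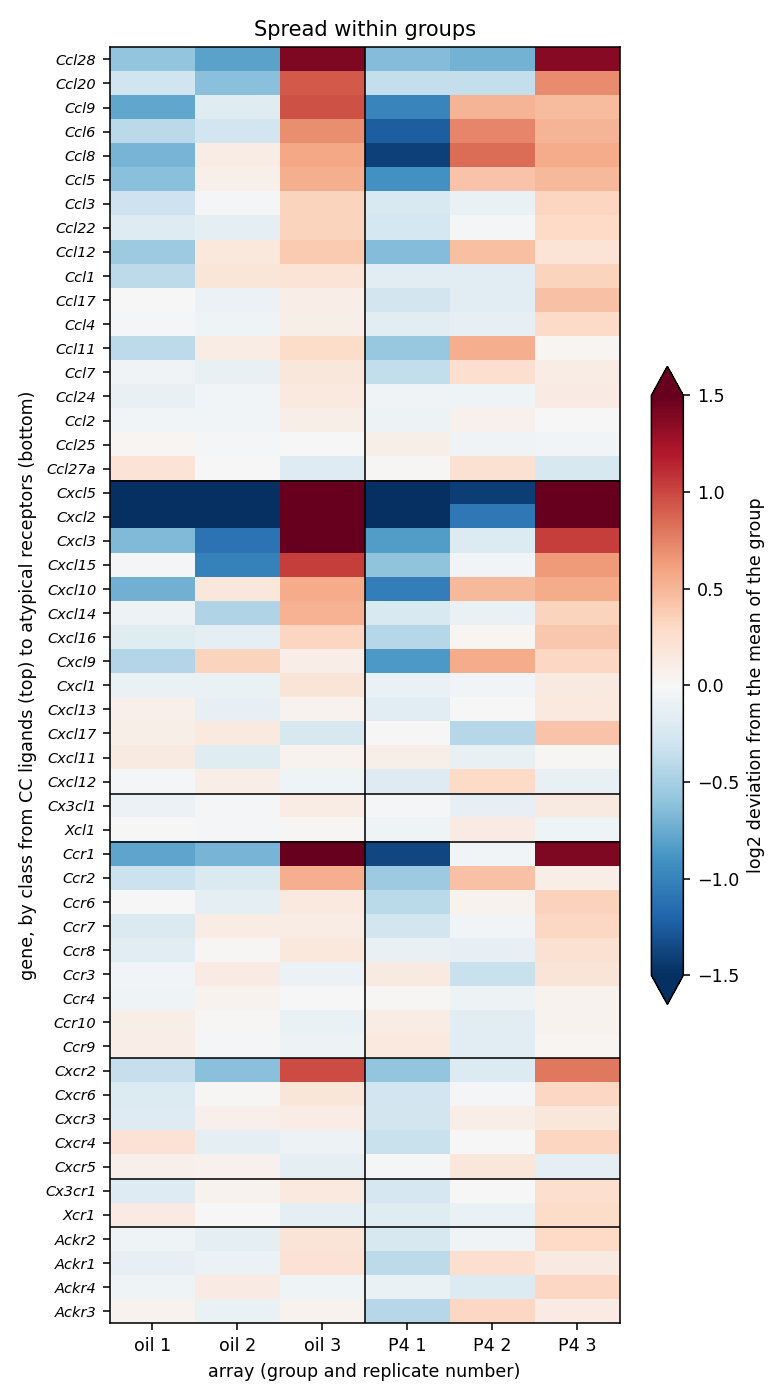
Deviation of each of the 53 members from the mean of its group on each of the 6 arrays, in log2 units, with the colour scale ending at 1.5 in both directions. Array 3 of both groups is above its group mean for most members (42 after oil and 48 after P4), and P4 array 1 is below it for 45.

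The interferon-induced CXC ligands, which attract T cells through Cxcr3, had no called change. Cxcl9 read 43.4, 85.4 and 70.0 after oil and 40.1, 133 and 110 after P4. Its groups overlapped, and the difference was 0.34 ± 0.36 (limma adjusted p = 0.64). Cxcl10 had -0.16 ± 0.47 and Cxcl11 -0.03 ± 0.11. Cxcr3 read 151, 184 and 189 after oil and 139, 184 and 195 after P4, a difference of -0.02 ± 0.14. T cell markers had 0 of 6 called, and their summed intensity ran from 620.1 to 803 after oil and from 554 to 760 after P4, the groups overlapping.

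Other CXC ligands were uncalled as well. Cxcl14, a ligand of epithelium and stroma, read 694, 532 and 1061 after oil and 504, 554 and 752 after P4 (difference -0.29 ± 0.25). Cxcl16, the ligand of Cxcr6, had -0.08 ± 0.22, and Cxcl13, which draws B cells through Cxcr5, 0.09 ± 0.11. A further probe set of Cxcl13 read 30.1, 21.1 and 15.1 after oil and 18.5, 99.0 and 44.3 after P4, so P4 arrays 2 and 3 were above the oil arrays. Of the 13 CXC ligands 10 had a negative difference, with a median of -0.08, beside 9512 of 18193 genes and a median of -0.01. These signs are not independent either. Of the 13, 1 was called (7.69%, beside 13.0% of all genes).

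Cx3cl1, the membrane-bound chemokine fractalkine, read 271, 285 and 314 after oil and 232, 215 and 259 after P4. The P4 arrays were all below the oil arrays. The difference was -0.28 ± 0.10 (limma adjusted p = 0.11; 0.0442 with the block). Its receptor Cx3cr1, carried by monocytes and macrophages, had 0.19 ± 0.15 (adjusted p = 0.5). Xcl1 and its receptor Xcr1, which marks a class of dendritic cells, had 0.04 ± 0.091 and -0.05 ± 0.14.

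Among the atypical receptors, Ackr4, which scavenges Ccl25 and the ligands of Ccr7, read 107, 125 and 108 after oil and 68.3, 62.3 and 95.9 after P4. The groups did not overlap, and the limma adjusted p was 0.0552 (difference -0.51 ± 0.14), or 0.0343 with the block. Without the block it was 0.0147 with P4 array 3 left out, between 0.095 and 0.19 with any other array left out, and 0.395 with both arrays numbered 2 left out. A further probe set of Ackr4 read 102, 120 and 96.2 after oil and 65.6, 67.7 and 74.4 after P4, also without overlap. The last probe set of Ackr4 read 59.1, 77.2 and 67.0 after oil and 59.6, 57.3 and 71.6 after P4, which overlap. Ackr1, which carries chemokines across venules, and Ackr2, a scavenger of inflammatory CC ligands, had -0.09 ± 0.18 and -0.10 ± 0.15. Of the 20 receptors 1 was called (5%, beside 13.0% of all genes), and 17 of the 20 had a 95% interval inside -1 to 1 log2. The other 3 were Cxcr4, Ccr1 and Cxcr2. Over all 53 members 35 intervals lay inside these bounds, and over all 18193 genes 17194 did.

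Of 25 ligand and receptor pairs with both partners measured, 0 had both called without the block. In 2 pairs 1 partner was called, Cxcl12 with Cxcr4 and Ccl25 with Ccr9. With the block Cxcl12 (adjusted p = 0.0484) and Cxcr4 (0.00292) were both called lower. Ccl28, Ccl12, Ccl8 and Cx3cl1 were then called too, without the receptor listed for each. For Ccl8 only Ccr2 was listed. Of all genes 13.0% were called without the block and 20.9% with it. The receptors Ccr4, Ccr6, Ccr7, Ccr8 and Cxcr5 had differences between -0.07 and 0.03, and Cxcr6 -0.16 ± 0.17.

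Downstream of the receptors, 1 of 21 measured genes of signalling and desensitisation rose and 1 fell (9.52%, beside 13.0% of all genes). Arrb1, beta-arrestin 1, which uncouples activated chemokine receptors from G proteins, read 509, 518 and 560 after oil and 280.0, 334 and 279 after P4, a difference of -0.80 ± 0.097 (limma adjusted p = 0.00266). Its paralogue Arrb2 had -0.09 ± 0.11. Pik3cg, a phosphoinositide 3-kinase activated by G proteins, rose by 0.60 ± 0.12 (adjusted p = 0.0158; up to 0.0606 without oil array 1 or P4 array 2). Of 15 genes that process or present chemokines 0 rose and 1 fell (6.67%): Sdc4, a heparan sulfate proteoglycan to which chemokines bind, went from 2794 ± 459 to 1396 ± 210.3 (SD, n = 3 each; -0.99 ± 0.14, adjusted p = 0.00508). Of 20 inducing cytokines and transcription factors 1 rose and 0 fell (5.00%). Il6, a cytokine that alters chemokine output, read 18.6, 11.1 and 19.0 after oil and 67.8, 73.9 and 44.8 after P4 (1.27 ± 0.17, adjusted p = 0.00391). Il6 was in the dimmest 30% of genes, and its difference was 1.88 with a pseudocount of 1 and 0.75 with 50. With the block the 3 lists held 3, 0 and 1 genes higher and 2, 2 and 1 lower, of 21, 15 and 20 measured. Of all genes the block called 9.29% higher and 11.6% lower.

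In 3 further lists 0 genes were called by limma. Among 5 chemokines under other symbols, 1 was higher and 0 lower at an unadjusted p under 0.05; Cklf had 0.50 ± 0.14 (adjusted p = 0.055; 0.0119 with the block) and Rarres2, the chemerin precursor, -0.39 ± 0.18 (0.231; 0.0247 with the block). Among 9 scavengers and chemoattractant receptors 0 were higher and 1 lower at that threshold, Pitpnm3, at -0.34 ± 0.11 (adjusted p = 0.0868; 0.038 with the block). Among 14 adhesion molecules of leukocyte traffic 1 was higher and 1 lower, with Icam2 at 0.41 ± 0.13 (adjusted p = 0.0738; 0.0291 with the block) and Pecam1, also an endothelial gene, at -0.34 ± 0.14 (0.163; 0.0229 with the block). The lists for dendritic (6 measured), B (4), natural killer (5) and mast cells (6), eosinophils (4) and lymphatic endothelium (4) had 0 called genes, with 1 lower lymphatic gene and otherwise 0 at an unadjusted p under 0.05. In the stroma list the transcription factors Hoxa10 (0.81 ± 0.098) and Hoxa11 (0.90 ± 0.080) rose. Without probe sets open to cross-hybridisation Hoxa10 was at 0.43 (adjusted p = 0.132). With the block Pdpn of the lymphatic list was called lower and Col1a1 of the stroma list higher, and 0 of 5 smooth muscle genes were called.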

How the data were processed

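The authors deposited linear intensities, 1 per probe set and array, for 45101 probe sets on 6 arrays. No source used here names the summarisation or scaling method. Per the labels, biotin-labelled cRNA was made from total RNA. Because array medians differed by only 0.059 log2, values were not normalized again before taking log2(intensity + 16). Of the probe sets, 64 were controls, 34945 had 1 gene symbol, 932 several and 9160 none; 0 symbols changed on matching to RefSeq. A gene with several probe sets was read from that with the highest mean.

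The P4 and oil groups were compared in R 4.3.3 with limma 3.58.1 (linear model, trended empirical Bayes, Benjamini-Hochberg adjustment over 18193 genes, threshold 0.05), with the replicate number as a block as an alternative. Titles give replicate numbers 1 to 3 in both groups. Deviations of same-numbered arrays correlated at 0.53, 0.13 and 0.64 over all genes, and oil array 2 was closer to P4 array 1 (0.29). Equal numbers were treated as pairs from the data alone, so the pairing was not established independently of the values tested with it. The number of arrays limits the precision.

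Members and lists were chosen with earlier results of these data known. Array values are given for called members, the 8 largest uncalled differences, the 4 widest spreads, partners of called members and, chosen after their values were seen, further members. The fit was tested on simulated data. Figures used matplotlib 3.10.9.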

Additional observations from a re-analysis of the deposited data

How the results depend on the processing

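The call of Cxcr4 held under every alternative run except leaving out both arrays numbered 2 (and without the dimmest 50% of genes it was not tested), and those of Cxcl17, Ccl27a and Ccl25 were each lost without at least 1 array. The count of all genes called was 2368, and 3801 with the replicate block. Members called higher numbered 1; the count was 2 with scaling to the hybridisation controls, 0 with the mean of all probe sets, 0 without the dimmest 30% or 50% of genes and 4 with the replicate block. Members called lower numbered 3, and 6 with the block. Among the 4 called members the block ended no call. Leaving out 1 array gave 993 to 2302 calls among all genes, 0 to 3 members higher and 1 to 3 lower. Leaving out both arrays numbered 2 gave 171 calls, with 0 and 0 members. Chosen after seeing the data, leaving out both arrays numbered 1 gave 1054, with 2 members higher and 1 lower, and leaving out both numbered 3 gave 1434; with the block as well the latter gave 2 members higher. Fewer arrays left fewer degrees of freedom in these fits.

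Signs turned only for uncalled members among the genes followed, which were the genes named by the rule, those called with the block and the called genes of the lists. Cxcl2 was 0.056 with scaling to the hybridisation controls, 0.058 with a pseudocount of 1, and 0.28 with both arrays numbered 3 left out, with or without the block. Cxcl3 was 0.16 with those arrays left out, with or without the block. Cxcl5 was -0.15 without both arrays numbered 2. Leaving out 1 array gave -1.39 to 1.60 for Cxcl2, -0.76 to 0.68 for Cxcl3, -1.67 to 2.44 for Cxcl5, -0.33 to 1.12 for Ccr1 and -0.02 to 0.14 for Ccr9. Quantile normalization, a pseudocount of 50 and eBayes without trend changed no call among the 4 called members. Without probe sets open to cross-hybridisation Ccl27a had no probe set and the calls of the other 3 members remained. The cause of these changes was not tested.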
